A study of Mus musculus with 6 samples.

Results

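The genes described here are mouse genes named Zfp and a number, which encode zinc finger proteins, in macrophages sorted from Day 3 skin wounds of young and aged mice. Of 296 protein-coding genes so named (Zfp36, a protein that binds AU-rich mRNA, left aside), 228 had a total of at least 60 expected counts over the 6 samples and were kept, from a table of 15168 genes. The members were thus chosen by their measured total level, and their levels are given as a description. Zfp36 and the protein-coding genes whose names start with Zfp but take another form, such as Zfp36l1, 25 in all, were not part of the set.

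Most Zfp proteins carry tandem zinc fingers of the C2H2 type, in which cysteines and histidines hold a zinc ion and the finger reads a few bases of DNA. A large group also carries a KRAB domain, which recruits TRIM28 (KAP1) and, through it, the histone methyltransferase SETDB1 and HP1 proteins, and so keeps retroelements and imprinted loci silent. Genes of the KRAB group arose by repeated duplication and stand in tandem clusters on several mouse chromosomes, whereas other Zfp genes encode promoter-binding activators, chromatin cofactors, RNA-binding proteins and ubiquitin ligases.

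Full-thickness excisional wounds were made on the back of female C57BL/6J wild-type mice, and live F4/80+ CD64+ cells that also carried CD45 and CD11b were sorted from the wounds on Day 3. The young mice were 12 weeks and the aged mice 24 months old, with 3 samples of each age, called young A, B and C and aged A, B and C after the set letters. The mice carried no transgene, the gate did not exclude Ly6G+ neutrophils, and the labels do not say which or how many animals gave each sample, so that p-values measure the spread between these samples. Messenger RNA was sequenced in bulk, where fewer cells of a type and less RNA per cell cannot be told apart.

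The libraries held 15270103 to 17927483 expected counts, and 1 count stood for 0.0553 to 0.0701 CPM, the count scaled to a common library size. All 8 macrophage markers listed were measured, with Adgre1, which encodes F4/80, at 329 ± 35.3 CPM (SD, n = 3) in young against 204 ± 34.8 CPM in aged samples, and Fcgr1, which encodes CD64, at 450 ± 24.3 and 500 ± 13.7 CPM. By edgeR, Itgam, which encodes CD11b, was higher (log2 fold change 0.99 ± 0.17, adjusted p = 0.00735) and Adgre1 lower (-0.69 ± 0.18, adjusted p = 0.0292), 25% of the list against 17.7% of all tested genes, and Cd68 and Lyz2 had all aged samples below the young samples without passing. Without young B, young C, aged A or aged C, 0 of the 8 were lower by edgeR (2, 1, 2 and 1 at an unadjusted p under 0.05). Aged B stood apart in 9 keratinocyte markers, whose summed level was 175 CPM there, 1.73 and 2.24 CPM in the other aged samples, and 0.727 to 1.06 CPM in young samples. It also had the highest summed level of 9 fibroblast markers, 122 CPM against 13.9 to 41.8 CPM in the other samples. Of 12 tested neutrophil markers 4 were higher and 0 lower in aged samples by edgeR (4 and 1 at an unadjusted p under 0.05, and 4 and 0 by DESeq2 and by limma-voom), the higher ones 33.3% against 9.73% of all tested genes. The higher count was 0 without young C (4 at an unadjusted p under 0.05), 1 without young A, aged A or aged C, 2 without young B and 5 without aged B. The summed levels over 13 markers were 717 to 1217 CPM in young against 926 to 1583 CPM in aged samples, which overlapped. Summed endothelial markers were 12.0 to 12.7 CPM in young against 25.9 to 31.5 CPM in aged samples, but without Pecam1 the sums of the other 6 overlapped, at 2.54 to 5.28 and 1.54 to 5.80 CPM. Summed T and NK cell markers were 5.95 to 7.69 CPM in young and 3.76 to 5.25 CPM in aged samples. These sums include Cd4, at 2.27 ± 0.549 CPM in young against 0.664 ± 0.424 CPM in aged samples, and sums without it were not made. Of the other tested markers, Nkg7 had a log2 fold change of -1.80 ± 0.59 and Trac one of 0.91 ± 0.63. The part of other cell types in any Zfp value below was not tested.

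A small number of Zfp genes differed between the ages in Day 3 wound macrophages, and their changes went both ways. Of those that passed the test, Zfp46, Zfp608 and Zfp790 were the most raised, and Zfp945, Zfp947 and Zfp932 the most lowered. Zfp945 and Zfp947 held 91 and 71 expected counts in all and did not pass without the low-count filter (edgeR adjusted p = 0.0694 and 0.0706). With 1 library left out Zfp947 passed in 0 of 6 fits. After the low-count filter 227 of the 228 members were tested, and p-values of edgeR's quasi-likelihood fit were adjusted by the Benjamini-Hochberg method across the 11878 genes tested. At an adjusted p under 0.05, 9 members were higher in aged samples, against 9.73% of all tested genes, and 5 were lower, against 7.97%. Both directions together came to 6.17% of tested members and 17.7% of all tested genes. Among the 6170 tested genes whose mean level lay within that of the middle 80% of members, 0.944 to 17.5 CPM, 14.0% passed. Over 2-fold, 3 members were called higher and 5 lower, against 4.59% and 4.2% of all tested genes.

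Members were measured with less precision than most genes. The median standard error of the log2 fold change was 0.34 for members, 0.31 for the tested genes at their level and 0.25 for all tested genes. At an unadjusted p under 0.05, 23 members were higher, 10.1% against 18.1% of all tested genes, and 22 were lower, 9.69% against 16.5%. The aged samples all lay above the young samples in 31 tested members and all below in 27, against 19.2% and 19.0% of all tested genes. The median log2 fold change, aged against young, was 0.10 over the tested members, -0.02 over all tested genes and -0.10 over the tested genes at their level. Without the filter, which keeps genes through their higher group, the median over all 228 members was 0.09. Of the tested members 130 had a positive and 97 a negative log2 fold change, and 130 lay within 0.5 of no change.

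Each set of calls depended on single libraries. Without young B or without young C, edgeR called 0 members in either direction, with 28 members at an unadjusted p under 0.05 in each case. Without aged C it called 1 (30 at an unadjusted p under 0.05), without aged B 4 (37), without aged A 9 (36) and without young A 25 (61). The calls over all genes moved as well, from 2103 with all libraries to 218 without young C and 2702 without young A. The sign of the change of the 14 called members was the same in every one of these fits. Their groups did not overlap, so that leaving out 1 library could not turn it, and it shows no stability.

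The lower genes are described first. The 150 bases of RefSeq sequence (GRCm38.p6, the same assembly as mm10) just upstream of the start site nearest to the 5′ end in the deposited table are shown for 7 of the 8 members called with over 2-fold change, the 5 lower genes and Zfp46 and Zfp790, to give examples from both directions, and the window of Zfp608 is not shown. Capitals mark 3 motifs searched on both strands: the ETS-type CCGGAAG, the SP- and KLF-type GGGCGG and the TATA box TATAAA. The start site of Zfp947 lay 213 bases from the table's 5′ end, and those of the others at most 42 bases.
Zfp945 (chr17:22867135-22867284, minus strand): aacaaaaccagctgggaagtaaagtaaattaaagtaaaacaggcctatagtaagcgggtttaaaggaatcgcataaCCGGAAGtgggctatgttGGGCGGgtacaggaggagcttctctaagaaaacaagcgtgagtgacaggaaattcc
Zfp947 (chr17:22165978-22166127, minus strand): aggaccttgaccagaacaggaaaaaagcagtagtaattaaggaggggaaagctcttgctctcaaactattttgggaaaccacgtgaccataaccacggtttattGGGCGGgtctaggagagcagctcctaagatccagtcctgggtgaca
Zfp932 (chr5:109996377-109996526, plus strand): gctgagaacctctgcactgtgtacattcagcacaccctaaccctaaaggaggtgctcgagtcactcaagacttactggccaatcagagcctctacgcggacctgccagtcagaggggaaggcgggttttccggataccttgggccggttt
Zfp560 (chr9:20385159-20385308, minus strand): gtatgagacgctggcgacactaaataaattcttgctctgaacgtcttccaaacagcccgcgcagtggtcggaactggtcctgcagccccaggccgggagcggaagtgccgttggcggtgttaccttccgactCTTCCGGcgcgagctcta
Zfp386 (chr12:116047574-116047723, plus strand): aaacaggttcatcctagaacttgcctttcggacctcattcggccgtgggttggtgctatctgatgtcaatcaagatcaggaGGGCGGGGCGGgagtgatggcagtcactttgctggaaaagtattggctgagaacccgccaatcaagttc
Zfp790 (chr7:29815922-29816071, plus strand): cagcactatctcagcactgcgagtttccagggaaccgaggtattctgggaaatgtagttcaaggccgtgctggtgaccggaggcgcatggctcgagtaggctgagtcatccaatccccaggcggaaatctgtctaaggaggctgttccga
Zfp46 (chr4:136284526-136284675, plus strand): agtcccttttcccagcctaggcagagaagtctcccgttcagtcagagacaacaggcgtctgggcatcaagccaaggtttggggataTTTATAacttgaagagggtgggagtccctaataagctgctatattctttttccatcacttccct

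The letters CCGGAAG stood in 13.8% of the 189 members with such a window and in 11.6% of the 10478 genes of the table with one, GGGCGG in 39.2% and 51.9%, and TATAAA in 2.12% and 3.61%. Of the 7 windows shown, those of Zfp945 and Zfp560 held CCGGAAG, those of Zfp945, Zfp947 and Zfp386 held GGGCGG, and that of Zfp46 held TATAAA. The windows of Zfp932 and Zfp790 held none of these letters. A match describes the sequence only. The windows of members were poorer in CpG, with a median of 8 CpG dinucleotides in 150 bases against 11 for all genes with a window, and within the members the median was 6 with and 10 without the KRAB pattern described below.

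Zfp945, at chr17:22846697-22867134 on the minus strand, was at 1.49, 1.41 and 1.78 CPM in young A, B and C and at 0.56, 0 and 0.309 CPM in aged A, B and C. The groups did not overlap, and aged B held no count. The log2 fold change was -2.42 ± 0.73 (SE), the lowest among the tested members, with an edgeR quasi-likelihood adjusted p of 0.0457. Zfp947, in the same cluster at chr17:22144359-22166190, was at 0.996, 1.58 and 0.793 CPM in young against 0.35, 0.318 and 0.247 CPM in aged samples. All aged samples were below all young samples, and the log2 fold change was -1.86 ± 0.54 (edgeR adjusted p = 0.0397). Its coding sequence matched that of the neighbouring Zfp995 over 1311 bases at 95% identity, so that the split of reads between the genes is uncertain, and Zfp995 itself had a log2 fold change of -0.34 (edgeR adjusted p = 0.53). Both genes rested on few reads, 91 and 71 expected counts in all. Their adjusted p was above 0.05 without the low-count filter, and that of Zfp947 was above 0.05 also by DESeq2 and limma-voom.

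Zfp932, a KRAB protein known to silence endogenous retroviruses, was at 2.49, 5.22 and 4.29 CPM in young against 0.701, 1.46 and 1.36 CPM in aged samples. Young A was the lowest young sample and still lay above every aged sample, and the log2 fold change was -1.75 ± 0.42 (edgeR adjusted p = 0.0218). Zfp932 matched Gm15446, a KRAB gene with a like known role, at 96.9% over 1371 bases, and 3 of its 6 expected counts lay over 0.05 from a whole number, so that its reads may be shared with the copy. Zfp560, on chromosome 9, was at 3.15, 3.46 and 3.96 CPM in young against 0.911, 1.02 and 2.04 CPM in aged samples. The highest aged sample, aged C, was below the lowest young sample, and the log2 fold change was -1.40 ± 0.39 (edgeR adjusted p = 0.036). Zfp386, on chromosome 12, was the lower gene with the most reads, 861 expected counts in all, and was at 12.6, 12.8 and 11.3 CPM in young against 8.13, 3.63 and 4.32 CPM in aged samples. Aged A lay nearest to the young samples, and the log2 fold change was -1.20 ± 0.30 (edgeR adjusted p = 0.0258).

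Of the higher genes, Zfp46 on chromosome 4 changed by the most. It was at 6.20, 2.82 and 4.49 CPM in young against 10.2, 11.4 and 10.3 CPM in aged samples. The aged samples lay close together above the wider young samples, and the log2 fold change was 1.23 ± 0.29 (edgeR adjusted p = 0.021). Zfp790, on chromosome 7, was at 5.09, 4.28 and 3.63 CPM in young against 7.99, 9.49 and 9.08 CPM in aged samples. The groups were apart by more than their own ranges, with a log2 fold change of 1.03 ± 0.24 (edgeR adjusted p = 0.0206). Zfp608, a relative of the Integrator and NIPBL partner Zfp609, was at 2.60, 4.05 and 3.70 CPM in young against 6.73, 8.66 and 6.36 CPM in aged samples. Its groups did not overlap, with a log2 fold change of 1.07 ± 0.28 (edgeR adjusted p = 0.0277), and Zfp609 went from 1.42 ± 0.355 to 2.43 ± 0.931 CPM without passing the test (edgeR adjusted p = 0.231).

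The other 6 higher genes changed by less than 2-fold. Zfp672 was at 5.25, 4.81 and 4.49 CPM in young against 7.57, 10.8 and 10.6 CPM in aged samples. Its log2 fold change was 0.99 ± 0.24 (edgeR adjusted p = 0.0227), with aged A nearest to the young samples. Zfp592, a partner of the chromatin reader ZMYND8, was at 14.1, 8.74 and 8.59 CPM in young against 14.7, 23.1 and 19.6 CPM in aged samples. Young A and aged A nearly touched, and the log2 fold change was 0.87 ± 0.26 (edgeR adjusted p = 0.0429). Zfp516, a partner of PRDM16 in brown fat, was at 14.8, 8.15 and 8.39 CPM in young against 16.1, 19.5 and 20.0 CPM in aged samples. Here too young A lay close to aged A, and the log2 fold change was 0.82 ± 0.26 (edgeR adjusted p = 0.0493). Zfp110, known as NRIF for its binding to the p75 neurotrophin receptor, was at 14.4, 14.9 and 10.7 CPM in young against 18.4, 27.6 and 23.8 CPM in aged samples. Aged B was the highest, and the log2 fold change was 0.80 ± 0.22 (edgeR adjusted p = 0.0319). Zfp281, a repressor of pluripotency genes, was at 16.1, 15.4 and 12.3 CPM in young against 20.8, 22.7 and 24.3 CPM in aged samples. Both groups were narrow and apart, with a log2 fold change of 0.63 ± 0.18 (edgeR adjusted p = 0.04). Zfp263, a promoter-binding SCAN and KRAB factor, was at 50.4, 37.5 and 42.1 CPM in young against 68.0, 56.9 and 66.3 CPM in aged samples. It was the highest of the 14 genes per kilobase of exon, and its log2 fold change of 0.56 ± 0.17 was the smallest (edgeR adjusted p = 0.0472).

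**Figure D1:**
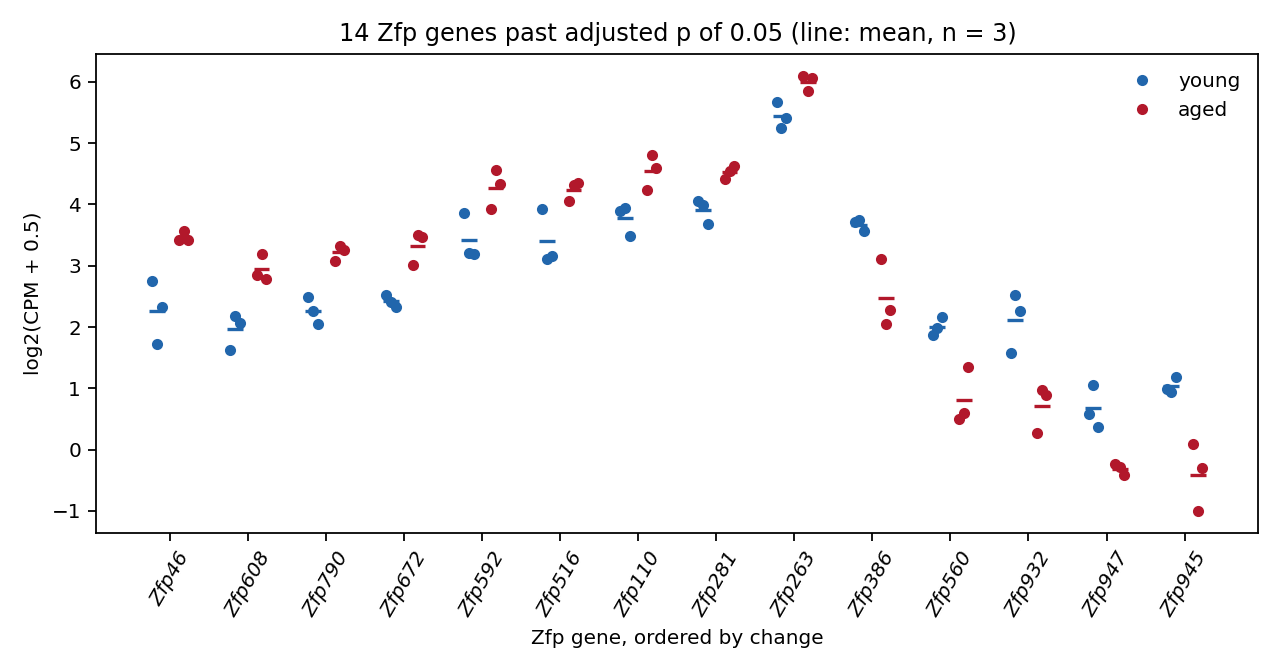
Level of the 14 Zfp genes past an adjusted p of 0.05 in each sample, as log2(CPM + 0.5), for young (blue) and aged (red) Day 3 wound macrophages, with a line at the mean of 3 samples. The 9 higher genes stand on the left and the 5 lower genes on the right, and in no gene do the young and aged points overlap.

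The Zfp genes were divided by the protein they encode. A pattern of the C-terminal part of the KRAB A box was found in the translated GENCODE M21 coding sequences of 111 members and not in 116, and Zfp267 had no match there. All 5 lower genes had the pattern, together with 2 of the 9 higher genes, Zfp46 and Zfp790. Calls in either direction came to 6.36% of the tested members with the pattern and 6.03% of those without it, against 17.7% of all tested genes. At an unadjusted p under 0.05, members with the pattern were higher in 5 and lower in 14 cases, 4.55% and 12.7%, and members without it were higher in 18 and lower in 8, 15.5% and 6.9%, against 18.1% and 16.5% of all tested genes. The pattern is strict and misses Zfp110, Zfp263 and Zfp445, which are known to encode a KRAB domain.

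The median log2 fold change was -0.07 over 110 tested members with the pattern (quartiles -0.49 and 0.35) and 0.24 over 116 members without it (quartiles -0.07 and 0.54), beside -0.02 over all tested genes (quartiles -0.42 and 0.42). Positive changes made up 42.7% of the first group, 71.6% of the second and 48.8% of all tested genes. In the first group 7 members had all aged samples above and 19 all aged samples below the young samples, 6.36% and 17.3%, and in the second 24 and 8, 20.7% and 6.9%, against 19.2% and 19.0% of all tested genes. With a pattern of the N-terminal part of the A box in its place the medians lay closer together, at -0.03 over 89 and 0.18 over 137 members. With a match to either part, a criterion chosen after the data were seen, they were -0.05 over 120 and 0.23 over 106 members. These are descriptions, and the difference between the groups was not tested, and members of a family share sequence.

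**Figure D2:**
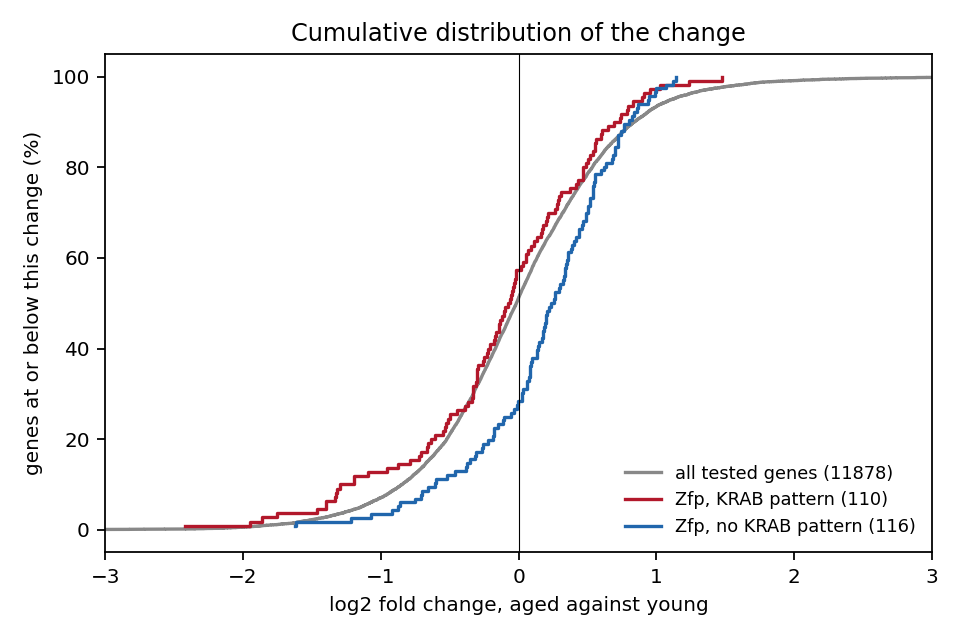
Cumulative share of genes (percent, vertical axis) at or below each log2 fold change, aged against young (horizontal axis, drawn from -3 to 3), for all tested genes (grey), 110 Zfp genes with the KRAB pattern (red) and 116 without it (blue). The blue line runs to the right of the grey line over most of its length, with medians of 0.24 and -0.02, and the red line stays near it, with a median of -0.07.

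The groups also differed in level. The median over 6 samples was 0.778 CPM per kilobase of exon for members with the pattern and 0.919 without it, against 3.11 over the 11682 tested genes with a length, and 192 members lay below that value. In members with a mean of under 2 CPM the median log2 fold change was -0.15 with the pattern (42 genes), 0.20 without it (31 genes) and -0.17 over all tested genes of that level. Between 2 and 5 CPM the medians were -0.22 (37 genes), 0.34 (20 genes) and -0.13, and between 5 and 15 CPM 0.08 (26 genes), 0.22 (40 genes) and -0.08. At 15 CPM or more they were 0.07 (5 genes), 0.18 (25 genes) and 0.07. Within each of these ranges the members without the pattern had the higher median. The members with it lay near all genes of their level below 2 CPM and, over 5 genes, at 15 CPM or more.

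By sample, the members without the pattern had a median deviation from each gene's mean, on the log2(CPM + 0.5) scale, of 0.00, -0.04 and -0.21 in young A, B and C and of 0.06, 0.14 and 0.08 in aged A, B and C. All aged samples were above all young samples, and young C was the lowest. For members with the pattern the values were 0.10, 0.10 and -0.07 in young and -0.07, 0.04 and -0.06 in aged samples, which overlapped. The summed level of members with the pattern was 554 ± 58.0 CPM (SD, n = 3) in young against 559 ± 3.11 CPM in aged samples, and that of the others 1208 ± 53.7 and 1353 ± 98.0 CPM. Young C had the lowest sum of each group, 497 and 1146 CPM.

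**Figure D3:**
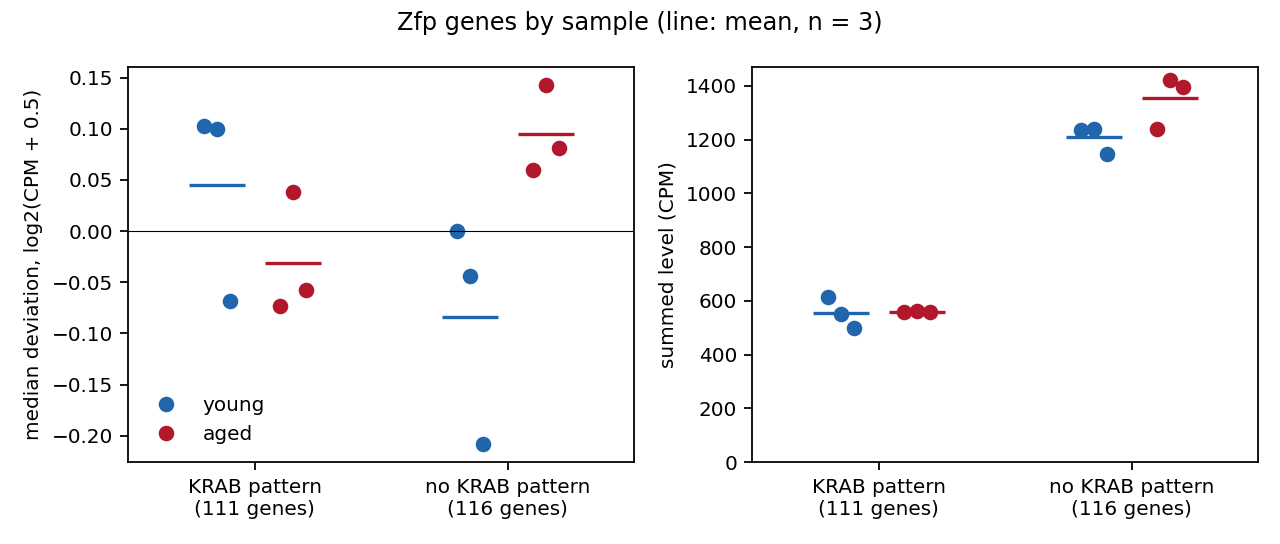
Left, the median deviation of Zfp genes from each gene's own mean over 6 samples, on the log2(CPM + 0.5) scale; right, their summed level in CPM; each point is 1 sample, young (blue) or aged (red), and each line the mean of 3. Members without the KRAB pattern have aged medians of 0.06 to 0.14, all above the young ones, while those with the pattern overlap.

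The number of fingers followed the change little. Translated coding sequences held 0 to 32 fingers by a strict C2H2 pattern, with a median of 11 in members with the KRAB pattern and 7 in the others, and Zfp142 had the most. Across 226 tested members, which share libraries and in part sequence, Spearman's rho between finger number and log2 fold change was 0.07, and that between exon length and log2 fold change 0.24. The 36 tested members with 16 fingers or more had a median of 0.21, and the 66 with 11 to 15 fingers a median of 0.02. Zfp608, Zfp609, Zfp703 and 7 other members had no finger by this pattern. The strict pattern undercounts some members. A wider one, which allows more residues between the cysteines, found 14 fingers in place of 3 in Zfp292 and 7 in place of 1 in Zfp143. It found 1 each in Zfp608 and Zfp609 and 0 in Zfp703, and many other members had the same number by both. The wider number was not set against the change.

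The members with the highest level per kilobase of exon were Zfp706 at 21.8 CPM per kilobase, Zfp207 at 17.7, Zfp830 at 17.2, Zfp655 at 12.0 and Zfp263 at 11.8. Zfp706, which encodes a short protein with 1 finger, was at 112, 124 and 120 CPM in young against 94.9, 105 and 97.7 CPM in aged samples. All aged samples were below all young samples, but the log2 fold change of -0.26 ± 0.15 did not pass (edgeR adjusted p = 0.243). Zfp207, the spindle protein BuGZ, was at 93.8, 132 and 119 CPM in young against 84.0, 139 and 140 CPM in aged samples. Its samples overlapped widely, as did those of the splicing factor Zfp830, with log2 fold changes of 0.08 and 0.06. Zfp655 was at 87.3, 49.5 and 59.4 CPM in young against 78.4, 60.1 and 67.4 CPM in aged samples, with a log2 fold change of 0.07 ± 0.22. None of the genes of highest level other than Zfp263 passed the test.

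At the other end stood members at the limit of the selection. Just inside the total of 60 were Zfp658 with 61, Zfp3 with 62 and Zfp428 with 65 expected counts, and just outside were Zfp202 with 59, and Zfp626 and Zfp661 with 58 each. Zfp658 was the member the low-count filter removed. The median member had a total of 359 expected counts, and 23 members had a coding sequence that matched another at 95% or more over at least 150 bases. In 41 members at least 1 expected count lay over 0.05 from a whole number, as where reads are divided between genes, and 37 overlapped another gene of the table, whose reads may not be told apart because the counting is not stated to use strand.

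Known roles gave 3 groups of members, listed with earlier results of these data known. Of 22 tested members with chromatin and promoter roles, 3 rose (Zfp592, Zfp281 and Zfp263) and 0 fell at an adjusted p under 0.05 by edgeR (7 and 1 at an unadjusted p under 0.05, and also 3 and 0 by DESeq2 and by limma-voom), 13.6% against 17.7% of all tested genes, and the other 19 did not pass. Without young B, young C, aged B or aged C, 0 of them passed by edgeR, with 3, 5, 4 and 6 at an unadjusted p under 0.05, without aged A 1 was higher, and without young A 4 were higher and 1 lower. With the set letter as a replicate block 2 members of the list were higher, and Zfp592 and Zfp281 did not pass (edgeR adjusted p = 0.0611 and 0.055). The median log2 fold change was 0.34, 19 of 22 values were positive, 86.4% against 48.8% of all tested genes, and all aged samples lay above all young samples in 8 and below in 1, 36.4% and 4.55% against 19.2% and 19.0%. The GC-rich promoter factor Zfp148 was at 20.6, 18.7 and 22.1 CPM in young against 23.2, 33.7 and 29.1 CPM in aged samples, apart by a narrow margin, with a log2 fold change of 0.49 ± 0.19 (edgeR adjusted p = 0.0928). Zfp687, which shares the ZMYND8 complex with Zfp592, was at 1.85 ± 0.641 CPM in young against 3.34 ± 0.509 CPM in aged samples (log2 fold change 0.84 ± 0.37, edgeR adjusted p = 0.134). The SUMO ligase Zfp451 had a log2 fold change of 0.72 ± 0.28, the promoter activator Zfp143 0.47 ± 0.21, the poly-A tract factor Zfp384 0.33 ± 0.17 and the G9a partner Zfp644 0.34 ± 0.25, and none of these passed. A further 9 members of the list with positive values, none past the test, ran from 0.02 ± 0.18 for Zfp740 to 0.49 ± 0.27 for Zfp335, with Zfp131, Zfp219, Zfp292, Zfp410, Zfp652, Zfp703 and Zfp746 between them. Of the 9, Zfp292 and Zfp335 had all aged samples above the young samples, and Zfp335 overlaps Pcif1. Of the 3 members with a negative log2 fold change, Zfp217 was at -0.46 ± 0.54 and Zfp24 at -0.18 ± 0.22, and neither passed. Zfp467, the lowest of them, was at 3.32, 6.81 and 4.36 CPM in young against 2.45, 2.29 and 2.90 CPM in aged samples. Its aged samples were all below the young samples, with a log2 fold change of -0.92 ± 0.34 (edgeR adjusted p = 0.0826).

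Of 5 tested members with roles at imprinted loci and retroelements, Zfp932 fell and the other 4 did not pass, 20% against 17.7% of all tested genes. Without young B, young C, aged A or aged C, 0 of the 5 passed by edgeR, with Zfp932 at an unadjusted p under 0.05 each time. Zfp809, which binds the primer binding site of retroviruses, was at 6.31, 6.16 and 7.79 CPM in young against 6.94, 7.90 and 6.18 CPM in aged samples. These values overlapped, with a log2 fold change of 0.05 ± 0.23. Zfp445, which acts with Zfp57 at imprinted loci, was at 4.46 ± 0.785 CPM in young against 5.98 ± 1.07 CPM in aged samples, with a log2 fold change of 0.42 ± 0.27 (edgeR adjusted p = 0.294). Zfp568, a repressor of a placental Igf2 transcript, and Zfp992 had log2 fold changes of 0.55 ± 0.51 and 0.02 ± 0.32, and Zfp992 matched Zfp991 at 99.5% over 1719 bases.

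Of 11 tested members with roles in RNA, ribosomes, the spindle and ubiquitin, 0 passed an adjusted p under 0.05 by edgeR, DESeq2 or limma-voom, or an unadjusted p under 0.05 by edgeR, against 17.7% of all tested genes adjusted and 18.1% higher and 16.5% lower unadjusted, and the median log2 fold change was 0.06. Zfp622, which acts in maturation of the large ribosomal subunit, was at 58.7, 72.7 and 60.8 CPM in young against 58.6, 65.3 and 76.3 CPM in aged samples, with a log2 fold change of 0.06 ± 0.17. Zfp91, a ubiquitin ligase of the noncanonical NF-kB pathway, was at 22.6 ± 7.15 and 19.9 ± 2.26 CPM, and Zfp598, the ligase of collided ribosomes, at 2.27 ± 0.293 and 2.00 ± 0.466 CPM. The groups overlapped for these genes. Zfp346, which binds double-stranded RNA, was the 1 member of the group whose aged samples lay all below the young samples, with a log2 fold change of -0.38 ± 0.34. A further 5 members, Zfp106, Zfp318, Zfp326, Zfp593 and Zfp638, ran from -0.32 ± 0.26 for Zfp593 to 0.56 ± 0.41 for Zfp318, with overlapping samples.

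Genes of proteins that work with KRAB factors were measured beside the members. Of 37 tested corepressor genes 3 were higher, 4 lower and 30 did not pass, and the 18.9% that passed were near the 17.7% of all tested genes. Trim28 was at 8.30, 9.74 and 9.78 CPM in young against 5.25, 8.73 and 7.29 CPM in aged samples. The groups overlapped through aged B, and the log2 fold change of -0.38 ± 0.25 did not pass (edgeR adjusted p = 0.295). Atf7ip, the partner of SETDB1, was at 16.3, 18.5 and 15.5 CPM in young against 29.4, 52.5 and 34.3 CPM in aged samples, with a log2 fold change of 1.21 ± 0.23 (edgeR adjusted p = 0.0106). Setdb1 itself went from 7.98 ± 0.369 to 9.90 ± 0.557 CPM, apart but not past the test (edgeR adjusted p = 0.305). Cbx3, which encodes HP1 gamma, was at 16.4, 18.8 and 18.1 CPM in young against 7.43, 9.11 and 13.0 CPM in aged samples, with a log2 fold change of -0.85 ± 0.23 (edgeR adjusted p = 0.034). Atf7ip was highest in aged B, and Cbx3 was lowest in aged A.

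Tasor, a subunit of the HUSH silencing complex, was higher, at 4.77 ± 0.565 CPM in young against 9.98 ± 3.57 CPM in aged samples (log2 fold change 1.06 ± 0.29, edgeR adjusted p = 0.0316). Kdm1a, the demethylase LSD1, was higher by a log2 fold change of 0.63 ± 0.17 (edgeR adjusted p = 0.0293), and Rbbp7, a histone chaperone of NuRD, was lower by -0.67 ± 0.16 (edgeR adjusted p = 0.0208). In the list for DNA and H3K9 methylation 10 of 11 genes had a negative log2 fold change, against 6081 of the 11878 tested genes. Ehmt2, which encodes G9a, at -0.76 ± 0.23 and Daxx, an H3.3 chaperone, at -0.54 ± 0.16 were past the test (edgeR adjusted p = 0.0483 and 0.041), 18.2% of the list against 17.7% of all tested genes. Of the 11 genes 1 was lower by limma-voom and 0 without the low-count filter, and with 1 library left out edgeR called 2 without young A and 0 in each of the other 5 fits (2 or 3 at an unadjusted p under 0.05). The summed level of that list was 137.9 to 140.8 CPM in young against 109.4 to 115.5 CPM in aged samples, which did not overlap. Without young C, 0 of the 37 genes passed by edgeR (10 at an unadjusted p under 0.05), and without young B, aged B or aged C 2 did.

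**Figure D4:**
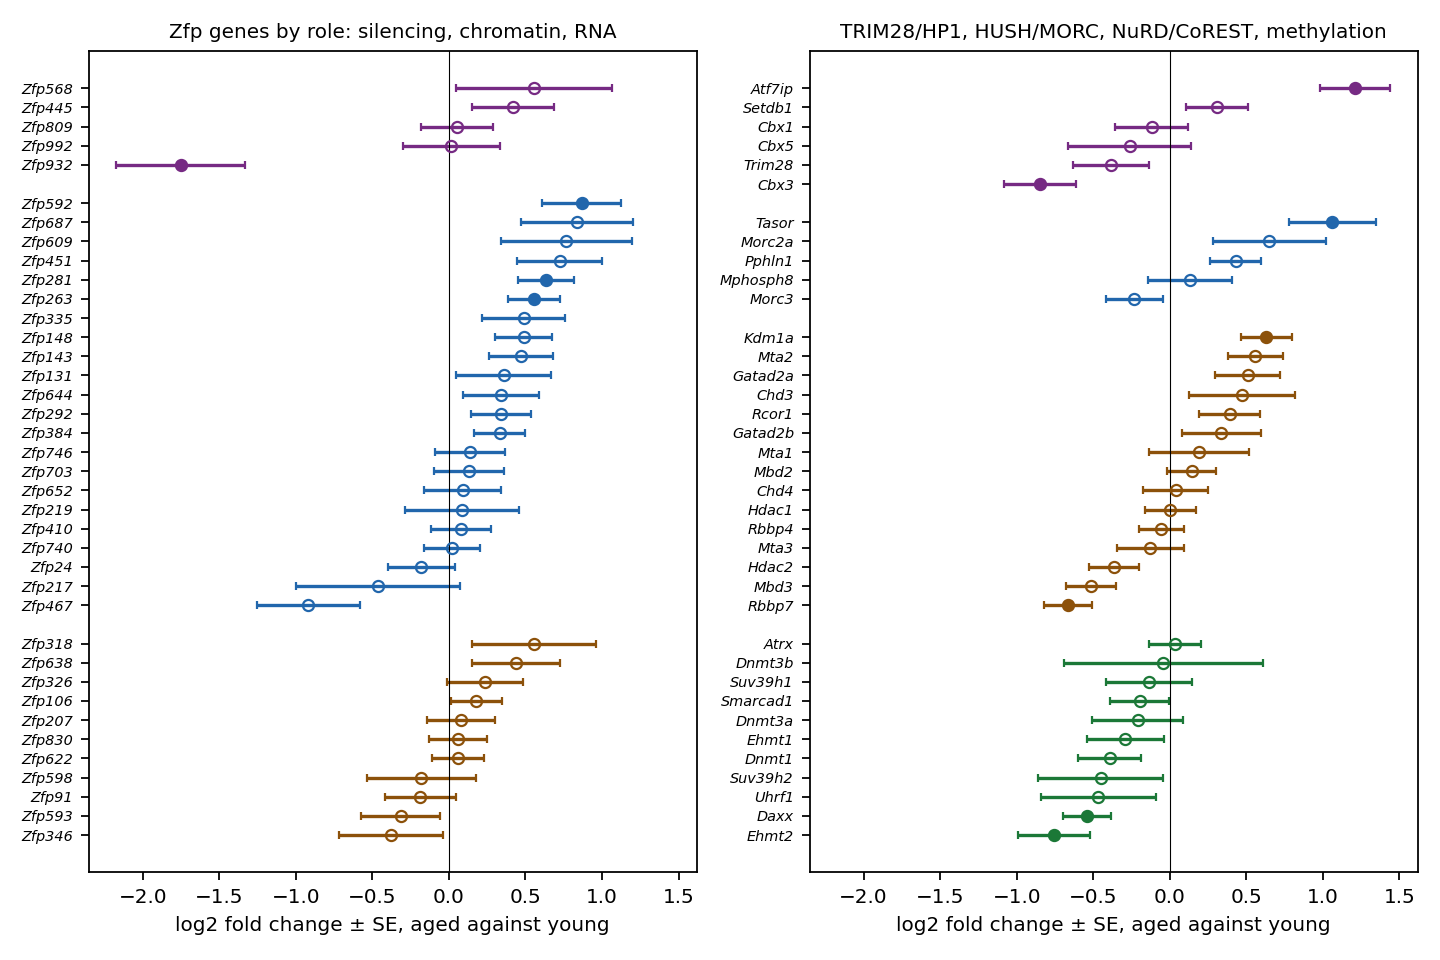
Log2 fold change with its standard error, aged against young (horizontal axis), for tested Zfp genes by role (left, from top: silencing, chromatin and promoter, RNA and ubiquitin) and for corepressor genes (right, from top: TRIM28 and HP1, HUSH and MORC, NuRD and CoREST, DNA and H3K9 methylation). Filled points have an edgeR adjusted p under 0.05; 19 of 22 chromatin and promoter members lie to the right of 0, and 10 of 11 methylation genes to the left.

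By position, 116 of the 228 members stood in 18 clusters, defined as at least 3 members on 1 chromosome with each start within 500 kilobases of the next, and 77 of these had the KRAB pattern. Chromosome 7 held the most members, 57, and chromosome 17 held 33. Within clusters 2 members rose and 3 fell, 4.35% of those tested, and outside them 7 rose and 2 fell, 8.04%, at an adjusted p under 0.05, against 17.7% of all tested genes. The median log2 fold change was 0.14 inside and 0.09 outside. With no low-count filter these medians over 116 and 112 members were 0.13 and 0.09.

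The largest cluster, at chr17:21008903-23564238 (mm10), held 19 members over 2555 kilobases, 18 with the KRAB pattern. It contained Zfp945 and Zfp947, both lower, and its median was -0.10, with 6 positive values. Between these genes and around them the neighbours ranged widely, from Zfp946, at -1.33 ± 0.42 with all aged samples below the young samples (edgeR adjusted p = 0.053), to Zfp54 at 0.74 ± 0.49. Zfp945, Zfp946 and Zfp947 were the 3 members of the cluster whose aged samples lay all below the young samples, 15.8% against 19.0% of all tested genes, and in the other 16 the groups overlapped.

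The cluster of 10 members at chr13:67038596-67729173, 9 with the KRAB pattern, had a median of 0.42 with 7 positive values, from -0.17 for Zfp455 to 0.69 for Zfp712, and no member reached even an unadjusted p under 0.05. On chromosome 7 the cluster of 11 members at chr7:29768552-30169750 had a median of 0.54 with 9 positive values, and contained Zfp790, at 1.03, and Zfp566, at -1.40 ± 0.55 with all aged samples below the young samples (edgeR adjusted p = 0.1). Nearby genes thus had opposite signs within 401 kilobases. The cluster of 5 members at chr7:12478293-12985714, with Zfp110, had a median of 0.80, from -0.79 ± 0.50 for Zfp606 to 1.48 ± 0.68 for Zfp324, both with overlapping samples, and the cluster of 5 at chr7:24081924-24515682 a median of -1.09.

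That last cluster ran from Zfp428, at -1.62 ± 0.63, to Zfp180, at 0.68 ± 0.27, and none of its members passed the adjusted test. Zfp428 had 65 expected counts in all and was at 0.83, 0.88 and 1.32 CPM in young against 0.0701, 0.446 and 0.432 CPM in aged samples. The 3 members on chromosome 10 had a median of -1.32, with Zfp873 at 0.719, 2.99 and 1.92 CPM in young against 0.49, 0.764 and 0.185 CPM in aged samples. The samples of Zfp873 overlapped through young A, and its log2 fold change of -1.95 ± 0.65 did not pass (edgeR adjusted p = 0.062). Zfp433, of the same cluster, matched a copy at 99.8% over 1800 bases.

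The other 12 clusters had medians from -0.18 on chromosome 5 to 0.48 on chromosome 7. In the 9-member cluster at chr17:32765496-33631779 the values ran from -0.66 ± 0.35 for Zfp952 to 0.83 ± 0.55 for Zfp799. The chromosome 9 cluster that contains Zfp560 ran from -1.40 for this gene to 0.90 ± 0.31 for Zfp26, with Zfp26 at 3.76, 2.76 and 1.98 CPM in young against 4.62, 5.80 and 5.50 CPM in aged samples. Zfp560 lay below and Zfp26 above in every aged sample, though Zfp26 did not pass (edgeR adjusted p = 0.0689). In the 5-member chromosome 8 cluster Zfp930 was at -1.30 ± 0.49 and Zfp866 at 0.96 ± 0.36, again with non-overlapping samples on both sides (edgeR adjusted p = 0.0896 and 0.0889), and Zfp866 matched Gm20422 at 100% over 232 bases and overlapped Atp13a1.

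None of the other cluster extremes passed the adjusted test. On chromosome 7 the 6 members at chr7:4915217-5053723 ran from -1.07 ± 0.58 for Zfp580 to 1.14 ± 0.63 for Zfp628, and the 6 at chr7:6131491-6396915 from -0.53 ± 0.23 for Zfp667 to 0.46 ± 0.44 for Zfp583. The 10 members at chr7:127233061-127885996 ran from -0.71 ± 0.24 for Zfp771 to 0.996 ± 0.37 for Zfp668, which overlaps Zfp646, with non-overlapping samples in both genes (edgeR adjusted p = 0.0615 and 0.0852). Zfp715 and Zfp719, the tested ends of the cluster at chr7:43296197-43593235, were at 0.17 ± 0.24 and 0.79 ± 0.27. The 7 members on chromosome 6, without the KRAB pattern, ran from -0.92 for Zfp467 to 0.72 ± 0.44 for Zfp212. The 3 members at chr9:22055411-22307648 ran from -1.46 ± 0.75 for Zfp810, whose samples overlapped, to 0.69 ± 0.27 for Zfp653. Clusters of 3 members on chromosomes 5, 8 and 18 had narrower ranges, from -0.25 for Zfp113 to -0.17 for Zfp68, from -0.39 for Zfp961 to 0.21 for Zfp709, and from -0.18 for Zfp24 to 0.34 for Zfp397.

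**Figure D5:**
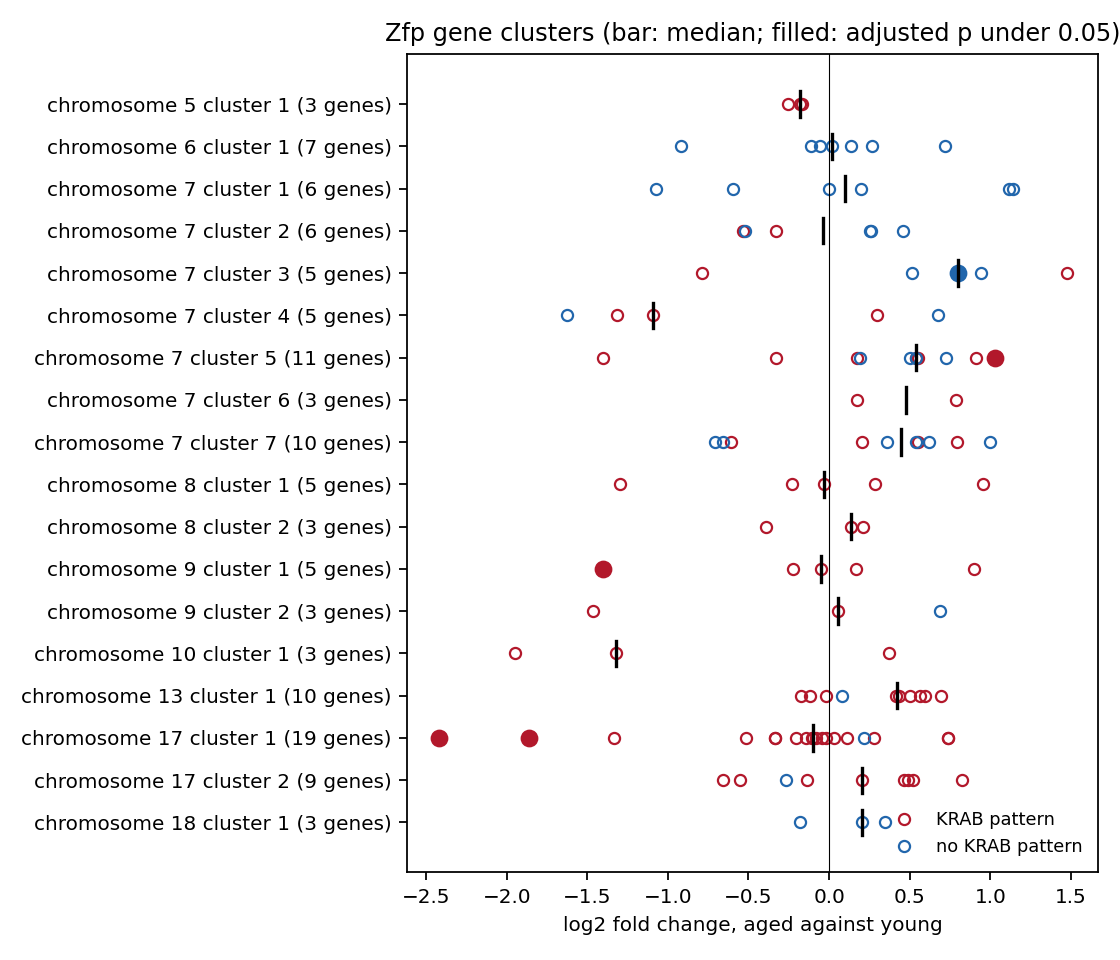
Log2 fold change, aged against young (horizontal axis), of the tested Zfp genes in each of the 18 chromosomal clusters (rows), with the KRAB pattern in red and without it in blue, filled where the edgeR adjusted p was under 0.05, and with a bar at the median. All rows but chromosome 5 cluster 1 and chromosome 7 cluster 6 hold values on both sides of 0, and the medians run from -1.32 on chromosome 10 to 0.80 on chromosome 7.

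Other zinc finger families in the table were set beside the Zfp genes by their symbols. Of 33 tested Zbtb genes, which carry a BTB domain, 4 were higher and 0 lower at an adjusted p under 0.05 by edgeR (9 and 0 unadjusted), 12.1% against 17.7% of all tested genes, with a median log2 fold change of 0.40. Of 12 Klf genes, Krüppel-like factors, 3 were higher and 0 lower (4 and 0 unadjusted), 25%, with a median of 0.52. Over all tested genes 9.73% were higher at an adjusted and 18.1% at an unadjusted p under 0.05 by edgeR. Of 13 Zscan and Zkscan genes, which carry a SCAN domain, 0 passed by edgeR (4 higher at an unadjusted p under 0.05) and the median was 0.04. These medians stood beside 0.24 for Zfp members without the KRAB pattern and -0.07 for those with it, and the differences between families were not tested. The calls in these families come from the edgeR fit of all libraries alone. Calls over all genes fell from 2103 in that fit to 218 without young C.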

How the data were processed

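The authors deposited expected counts per gene, in part not whole numbers, after alignment with STAR 2.7.3a in Partek Flow to mm10 with Ensembl release 102 transcripts (150-base paired reads). Their table lists genes with a total of 10 or more. Its stop coordinate lies 1 base past the gene's end and was reduced by 1. Their separate table of the comparison, with p-values, fold changes and normalized values, was not used. Expected counts were rounded, filtered with filterByExpr, scaled by TMM and tested with edgeR 4.0.16 (quasi-likelihood, age as the only term) in R 4.3.3, with limma 3.58.1 and DESeq2 1.42.0 as alternatives. CPM divide counts by the TMM-scaled library size. Lengths, translated coding sequences and copies (BLAST 2.17.0) came from GENCODE M21, whose starts match the table, and upstream windows from RefSeq. No protein sequence is printed.

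The members and lists were chosen with earlier results of these data known. Named were members past an adjusted p of 0.05 with non-overlapping groups (up to 12 a direction by fold change), the 5 of highest CPM per kilobase, members of the role lists, the highest and lowest of each cluster, and 3 genes on each side of the total of 60. Zfp946, Zfp142 and Zfp995 were named after their values were seen.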

Additional observations from a re-analysis of the deposited data

How the results depend on the processing

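The counts of 9 higher and 5 lower members stayed within 1.5 times under DESeq2, DESeq2 size factors in edgeR, a minimum of 10 counts in every sample and limma-voom. The genes were not all the same. Of the 16 members that passed under DESeq2, 13 were among the 14. With the minimum of 10 counts 12 of 14 were, and Zfp945 and Zfp947 did not meet that minimum and were not tested. Under limma-voom 13 of the 14 passed, and with DESeq2 size factors in edgeR all 14. The sign of each of the 14 genes was kept in all alternatives in which it was fitted, but their non-overlapping groups left little room for a change of sign. Without a low-count filter, and with members of a total of at least 200, 3 members were lower and 3 were called lower over 2-fold. With 1 library left out, higher members ranged from 0 to 17, lower members from 0 to 8 and passing corepressor genes from 0 to 9. Those called higher over 2-fold ranged from 0 to 12 and those called lower from 0 to 7. The median of all members ranged from 0.06 to 0.15, and that with the KRAB pattern from -0.14 to -0.0044. Without the pattern the median ranged from 0.18 to 0.33. All 37 corepressor genes were tested each time. Separated members ranged from 70 to 109 (58 with all libraries). For the same genes, leaving out a library can only keep or raise this count, so the rise is not a result about the members. The share over all tested genes was not computed for these fits. Without the low-count filter Zfp263, Zfp516, Zfp945 and Zfp947 no longer passed. The median of all genes moved by less than 0.1 under each scaling. With gaps of 250 and 1000 kilobases there were 15 and 20 clusters.

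Samples of the same set letter did not all deviate together, with correlations of 0.18 for A, -0.02 for B and 0.11 for C. Between samples of different letters the correlations ran from -0.215 to 0.138, and that of A was the highest of all. The letters were not taken as pairs in the main fit, and these values do not settle whether they should be. With the set letter as a replicate block in edgeR 10 members were higher and 6 lower, 4 and 4 of them over 2-fold, and 9 of these 16 were among the 14, without Zfp281, Zfp516, Zfp592, Zfp945 and Zfp947 (adjusted p = 0.055, 0.054, 0.0611, 0.0538 and 0.0635). The block left 1 higher neutrophil marker, 2 higher chromatin and promoter members and 0 passing DNA and H3K9 methylation genes. It gave 5 passing corepressor genes and medians of 0.10 for all members, -0.09 with and 0.27 without the KRAB pattern. The 58 separated members could not change with the block, because separation compares the CPM of the samples and does not use the fit. A single count stood for at least 0.0553 CPM, so that members near 1 CPM rest on few counts a sample, which limits what can be called.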
